A study of Sus scrofa with 12 samples.

Results

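A set of 6 genes of gluconeogenesis and fructose metabolism (PCK1, PCK2, FBP1, KHK, G6PC and PC) was followed in jejunum RNA of 12 piglets. The genes were taken by gene name from a deposited table of 41264 loci and 17049 gene names, and loci that shared a name were summed. Of the 6, PCK1, PCK2, FBP1 and KHK were matched by name and are described here, while G6PC and PC were not matched and are not analysed here by name.

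The 12 libraries form 4 groups of 3 piglets. W_Con piglets were sucking piglets sampled on the day of weaning, at 21 days of age, from sows on a corn and soybean meal diet. PW_Con piglets came from sows on the same diet and were sampled at 28 days, after a week without the sow. W_Res and PW_Res piglets had the same ages, but their sows received that diet with 300 mg/kg resveratrol from after breeding through gestation and lactation. Resveratrol is a plant polyphenol. All sows were bred with pooled Landrace semen, and piglets of both diets were cross-fostered within their own diet, so that a piglet's litter need not be its birth litter. Weaned piglets were 1 week older than sucking piglets, and age and weaning cannot be told apart. The 3 libraries of a group are called biological replicates. The sample records do not give their litters, while the methods of the study, which covers the control piglets, state that a male piglet was taken per litter at each age and that the same litters served both ages. Which litter gave which library, and the litters of the resveratrol piglets, are not given in the sources used here, so that p-values measure the spread between these piglets.

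Gluconeogenesis makes glucose from lactate, glycerol and amino acids. Pyruvate carboxylase (PC) makes oxaloacetate, phosphoenolpyruvate carboxykinase (PCK1 in the cytosol, PCK2 in mitochondria) turns it into phosphoenolpyruvate, fructose-bisphosphatase (FBP1) removes a phosphate from fructose bisphosphate, and glucose-6-phosphatase (G6PC) releases free glucose. Ketohexokinase (KHK) traps fructose by phosphorylation, a step that the small intestine carries out on dietary fructose, and the resulting trioses can run up the same path through FBP1. Sow's milk carries lactose, a sugar of glucose and galactose, as its main carbohydrate.

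Values are FPKM, fragment counts scaled for transcript length and sequencing depth, and can be compared between genes. Each library summed to between 313171 and 334469 FPKM. Read totals were not used here, but the steps between low values put the relative depth of the libraries between 0.725 and 1.45 times that of W_Con piglet 1. The study's mapping summary of the control libraries gives every weaned piglet a larger share of reads mapped to several places than every sucking piglet. Its part in the control weaning values was not tested. W_Res piglets 2 and 3 stood apart, with a median locus at 1.12 and 0.836 FPKM against 0.239 to 0.479 FPKM in the other 10 libraries, and fold changes and ratios of the 4 genes that rest on W_Res are given with and without them. Leaving out both leaves W_Res with piglet 1 alone, whose spread is then assumed to be that of the other groups, so that these values show a direction and a call lost there is no sign of a weaker difference. Of the 8 enterocyte markers matched, all were above 0 in every library. The apolipoprotein gene APOA1 ran from 702 to 10667 FPKM and VIL1 (villin of the brush border) from 296 to 1062 FPKM. SI (sucrase-isomaltase) ran from 13.6 to 51.1 FPKM and APOB, another apolipoprotein gene, from 0.363 to 6.85 FPKM. The hepatocyte list, whose cells are the main site of these enzymes in the body, summed to 0.134 to 6.62 FPKM, with AHSG at 0 in 11 libraries. The labelled site is jejunum, but FABP6, an ileal bile acid binding protein, ran from 1.70 FPKM in PW_Res piglet 2 to 24110 FPKM in PW_Res piglet 1. In bulk tissue, fewer cells of a type and less RNA per cell cannot be told apart.

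Averaged over all 12 libraries, FBP1 was the most abundant of the 4 transcripts and PCK1 the least, but in PW_Con FBP1 was the highest in 0 of 3 libraries and PCK2 had the higher mean. The mean over all 12 libraries was 81.6 FPKM for FBP1, 54.6 FPKM for PCK2, 44.3 FPKM for KHK and 17.4 FPKM for PCK1. FBP1 was the highest of the 4 in 8 libraries, PCK2 in 3 and KHK in 1, and PCK1 was the lowest in 11 libraries and KHK in 1. Within libraries, FBP1 exceeded PCK2 by 0.52 ± 0.61 on the log2 scale (SD, n = 12, exact two-sided sign-flip permutation test, p = 0.019, adjusted over 3 neighbouring pairs 0.0285, higher in 9 of 12). FBP1 was the higher in every sucking piglet, but in both weaned groups the order went both ways. The means of FBP1 and PCK2 were 42.0 and 43.7 FPKM in PW_Con and 81.7 and 74.9 FPKM in PW_Res. The value over all 12 libraries thus does not describe the weaned piglets. PCK2 and KHK were neighbours whose order did not hold beyond the spread (0.21 ± 0.60 on the log2 scale, exact permutation p = 0.261, PCK2 higher in 7 of 12). KHK exceeded PCK1 by 2.08 ± 1.38 on the log2 scale (exact permutation p = 0.000977, adjusted 0.00293, higher in 11 of 12). The neighbouring pairs were taken from the order of the means in these same 12 libraries, not set beforehand. These p-values measure the spread between piglets and not how well FPKM compares 1 gene with another.

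**Figure D1:**
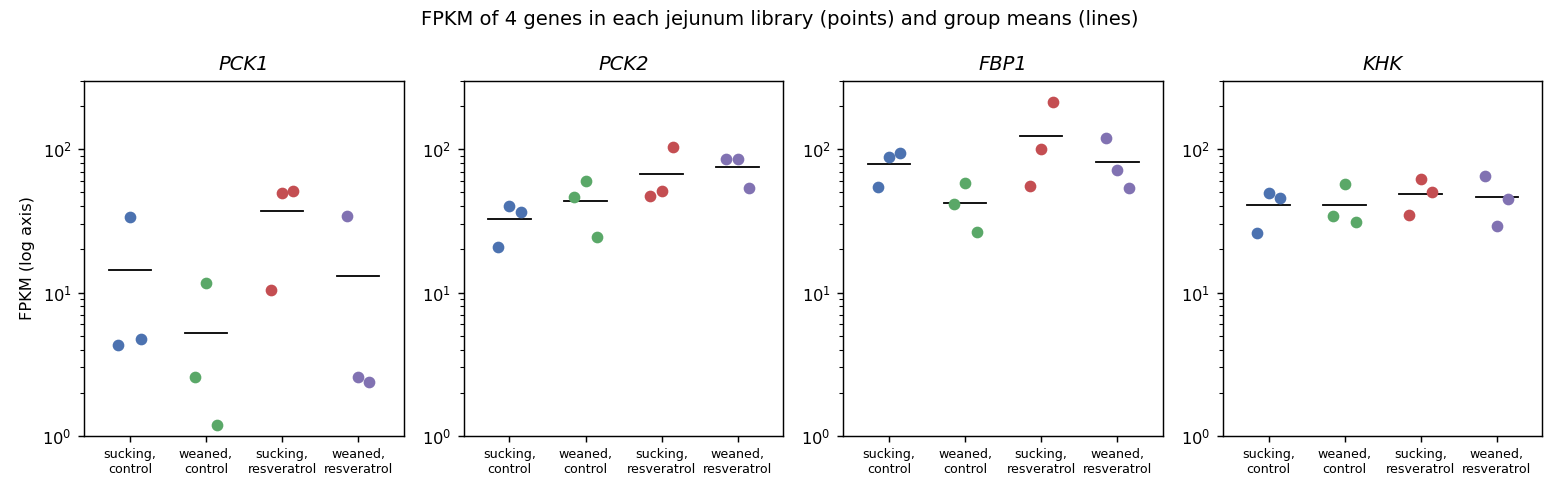
FPKM (log axis) of PCK1, PCK2, FBP1 and KHK in each of the 12 jejunum libraries, by age and maternal diet, with 3 piglets a group; points are libraries and lines are group means. PCK1 spreads over a 43.0-fold range across the 12 libraries, against 8.04-fold for FBP1, 4.99-fold for PCK2 and 2.48-fold for KHK.

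PCK1 encodes the cytosolic carboxykinase, the form long taken as a control point of gluconeogenesis. In sucking control piglets its level was 4.27, 33.7 and 4.75 FPKM, and in weaned control piglets it was 2.59, 11.7 and 1.20 FPKM. Both groups held 2 low libraries and 1 high one, and they overlapped. In piglets of resveratrol-fed sows it was 10.5, 49.4 and 51.4 FPKM before weaning and 34.0, 2.58 and 2.36 FPKM after it. W_Res held the 2 highest libraries of the 12, while PW_Res held 1 high and 2 low libraries, and these groups overlapped too. Means were 14.3 ± 16.9 FPKM in W_Con, 5.18 ± 5.73 FPKM in PW_Con, 37.1 ± 23.1 FPKM in W_Res and 13.0 ± 18.2 FPKM in PW_Res (SD, n = 3 each).

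PCK2 encodes the mitochondrial carboxykinase. Its level was 20.8, 40.0 and 36.7 FPKM in W_Con and 47.1, 51.3 and 104 FPKM in W_Res, so that every sucking piglet of the resveratrol litters lay above every sucking control piglet. After weaning it was 46.2, 60.3 and 24.6 FPKM in PW_Con and 85.5, 85.4 and 53.7 FPKM in PW_Res. These groups overlapped through PW_Con piglet 2 and PW_Res piglet 3. Means were 32.5 ± 10.3 FPKM in W_Con, 43.7 ± 18.0 FPKM in PW_Con, 67.5 ± 31.7 FPKM in W_Res and 74.9 ± 18.3 FPKM in PW_Res (SD, n = 3 each). In all, 3 loci carried the name PCK2, and 1 of them held 99.3% of the summed level.

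FBP1 encodes the fructose-bisphosphatase of liver and intestine. In sucking control piglets it stood at 55.0, 88.5 and 94.5 FPKM, and in weaned control piglets at 41.6, 57.9 and 26.6 FPKM. Weaned piglets were lower except that PW_Con piglet 2 lay just above W_Con piglet 1. In the resveratrol litters it stood at 55.6, 100.4 and 214 FPKM before weaning and at 119, 71.6 and 54.0 FPKM after it, and the groups overlapped widely. Means were 79.4 ± 21.3 FPKM in W_Con, 42.0 ± 15.6 FPKM in PW_Con, 123 ± 81.8 FPKM in W_Res and 81.7 ± 33.8 FPKM in PW_Res (SD, n = 3 each). FBP2, the paralog that is next to FBP1 in the Sscrofa11.1 annotation, had its own name in the table, with a mean of 40.7 ± 12.9 FPKM in W_Con, 33.2 ± 2.69 FPKM in PW_Con, 46.0 ± 8.62 FPKM in W_Res and 33.5 ± 6.17 FPKM in PW_Res (SD, n = 3 each). How reads common to both copies were divided is not given in the sources used here.

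KHK was the steadiest of the 4. It stood at 26.2, 49.6 and 45.9 FPKM in W_Con, 34.5, 57.7 and 31.1 FPKM in PW_Con, 34.7, 62.3 and 50.2 FPKM in W_Res and 64.9, 29.0 and 45.2 FPKM in PW_Res. All 4 groups overlapped, and their means lay between 40.6 ± 12.6 FPKM in W_Con and 49.1 ± 13.8 FPKM in W_Res (SD, n = 3 each). In all, 2 loci carried the name KHK, and the larger held 90.5% of the level. Against all 12886 named genes tested in the 12 libraries, the spread within groups was wide for every one of the 4 genes. The SD within groups on the log2(FPKM + 1) scale was 1.53 for PCK1, wider than in 99.1% of genes, 0.66 for FBP1, 0.55 for PCK2 and 0.49 for KHK, against a median of 0.34 over all genes.

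The gene identifier that the name table pairs with PC (ENSSSCG00000012926) stands in the deposited table in place of a gene name, and its levels are given outside the count of the 4 genes. They averaged 5.68 ± 3.01 FPKM in W_Con, 7.58 ± 1.41 FPKM in PW_Con, 11.1 ± 8.45 FPKM in W_Res and 12.3 ± 4.83 FPKM in PW_Res (SD, n = 3 each).

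The first comparison asks what differed between weaned and sucking piglets of control sows. FBP1 was the gene with the clearest difference: weaned piglets stood 0.93 lower on the log2(FPKM + 1) scale (SE 0.32, 95% interval -1.69 to -0.17), a 1.90-fold lower level, with a limma adjusted p of 0.216 over 12611 genes. PCK1 differed by -1.13 (SE 0.88, interval -3.19 to 0.93, limma adjusted p = 0.552), PCK2 by 0.38 (SE 0.37, interval -0.50 to 1.26, limma adjusted p = 0.649) and KHK by 0.02 (SE 0.32, interval -0.73 to 0.77, limma adjusted p = 0.984). The standard of the study, an unadjusted P under 0.05 with a log2 fold change beyond 1 in either direction, was met by 0 of the 4 genes in limma and by 0 in the Ballgown linear model, against 3.31% and 2.64% of all genes tested. At an unadjusted P under 0.05 alone, FBP1 passed in limma (1 of the 4) and 0 passed in the Ballgown model, against 17.7% and 17.2% of all genes. None of the 4 had groups that did not overlap, against 25.3% of all genes. The call on FBP1 turned on single piglets, since it met the standard without W_Con piglet 1 (-1.17, limma adjusted p = 0.230) or without PW_Con piglet 2 (-1.19, limma adjusted p = 0.251). The value for PCK1 was -0.24 without W_Con piglet 2. With a block by replicate number, which the records do not tie to litters, it stayed at -1.13 and met the standard (SE 0.25, limma adjusted p = 0.243). Some markers of position along the intestine and of enterocytes moved with these groups. The proximal small intestine list summed to 3354, 11033 and 12511 FPKM in W_Con and 2325, 2770 and 901 FPKM in PW_Con, without overlap, and was nearly all FABP1, a fatty acid binding protein (3311 to 12407 FPKM in W_Con). CYBRD1 and GATA4 of that list overlapped between the groups, and SLC40A1 did not. The distal list summed to 8323, 1369 and 73.2 FPKM in W_Con and 9963, 9116 and 6743 FPKM in PW_Con. Of the enterocyte markers, FABP2 (260, 759 and 419 FPKM in W_Con, 131, 106 and 60.3 FPKM in PW_Con), MTTP and APOB were lower in every PW_Con piglet than in every W_Con piglet. VIL1, SI, ANPEP, APOA1 and APOA4 overlapped between the groups. The part of these position and enterocyte markers in the control litter values was not tested.

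In the resveratrol litters, PCK1 had the largest difference between weaned and sucking piglets, -2.06 on the log2(FPKM + 1) scale (SE 0.98, 95% interval -4.34 to 0.23), with a limma adjusted p of 0.407 over 13013 genes. FBP1 differed by -0.45 (SE 0.51, interval -1.64 to 0.73, limma adjusted p = 0.717), PCK2 by 0.21 (SE 0.36, limma adjusted p = 0.818) and KHK by -0.11 (SE 0.35, limma adjusted p = 0.906), where the median of all genes was -0.16. In the Ballgown model the direction was the opposite for PCK1 (0.60, SE 2.75), PCK2 (-0.37, SE 0.96) and KHK (0.89, SE 0.75). These SEs were far wider than in limma, so that the Ballgown values do not settle a direction. Of the 4 genes, 0 met the standard in limma or in the Ballgown model, against 4.75% and 1.77% of all genes. At an unadjusted P under 0.05, 0 passed in either model, against 13.3% and 3.67%, and 0 had groups that did not overlap, against 21.8%. PCK1 met the standard without W_Res piglet 1 (-2.78, limma adjusted p = 0.275) or without PW_Res piglet 1 (-3.17, limma adjusted p = 0.390), the piglet whose PCK1 level of 34.0 FPKM was far above that of the other 2 of its group. Without W_Res piglets 2 and 3 together, PCK1 stood at -0.62 and PCK2 at 0.62, and FBP1 (0.47) and KHK (0.33) took the opposite direction. The smooth muscle list summed to 1787, 3905 and 656 FPKM in W_Res and 634, 445 and 195 FPKM in PW_Res, without overlap, and its part in the weaning values of these litters was not tested.

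Averaged over both litter sets, PCK1 was 1.59 lower in weaned piglets (SE 0.74, 95% interval -3.22 to 0.03) with a limma adjusted p of 0.272. FBP1 was 0.69 lower (SE 0.33, limma adjusted p = 0.283), PCK2 was 0.29 higher (SE 0.28, limma adjusted p = 0.587) and KHK differed by -0.05 (SE 0.25, limma adjusted p = 0.935). Here 0 of the 4 genes met the standard in limma or in the Ballgown model, against 1.42% and 1.21% of 12886 genes, and 0 passed at an unadjusted P under 0.05 in either, against 19% and 10.1%. PCK1 met the standard when any of 5 libraries was left out (W_Con piglets 1 or 3, W_Res piglet 1, PW_Con piglet 2 or PW_Res piglet 1), at values of -1.80 to -2.15, with limma adjusted p of 0.128 to 0.331. Leaving out W_Res piglets 2 and 3 together put PCK1 at -0.87, FBP1 at -0.23, PCK2 at 0.50 and KHK at 0.18. In the Ballgown model PCK2 stood at -0.061 and KHK at 0.015. The difference of the weaning effect between the litter sets was -0.93 for PCK1 (SE 1.48), -0.17 for PCK2 (SE 0.56), 0.48 for FBP1 (SE 0.66) and -0.13 for KHK (SE 0.51), with limma adjusted p from 0.777 to 0.925, and without W_Res piglets 2 and 3 it was 0.51, 0.25, 1.40 and 0.32 in the same order. Of the 4, 0 met the standard for that difference in limma or in the Ballgown model, against 7.76% and 2.25% of all genes, and 0 passed at an unadjusted P under 0.05, against 13.7% and 4.94%.

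**Figure D2:**
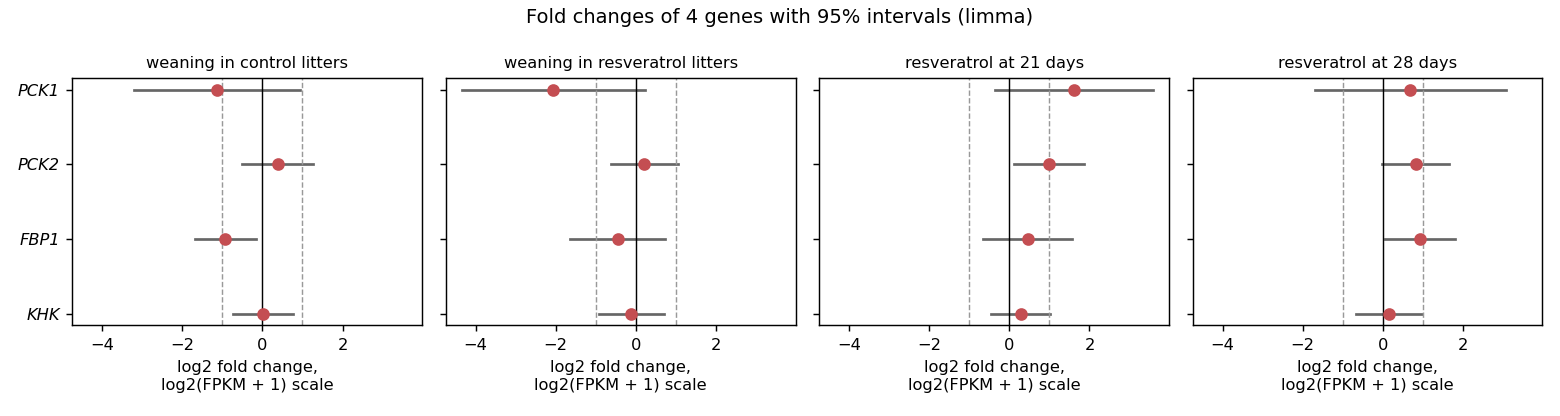
Log2 fold changes of the 4 genes on the log2(FPKM + 1) scale with 95% intervals from limma, in the weaning and the maternal diet comparisons, 3 piglets against 3 in each; dashed lines mark a log2 fold change of 1 and -1. The intervals of FBP1 in control litters and at 28 days and of PCK2 at 21 days leave out 0, and those of PCK1 are the widest.

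The maternal diet comparisons ask whether piglets of resveratrol-fed sows differed from control piglets of the same age. All 4 genes had fold changes above 0 at both ages, where 57.9% of all genes tested did so at 21 days and 41.2% at 28 days. At 21 days PCK2 was 0.99 higher on the log2(FPKM + 1) scale (SE 0.37, 95% interval 0.12 to 1.86), a 1.99-fold higher level, with a limma adjusted p of 0.356 over 13186 genes. PCK1 differed by 1.62 (SE 0.85, interval -0.36 to 3.59, limma adjusted p = 0.434), FBP1 by 0.46 (SE 0.48, limma adjusted p = 0.686) and KHK by 0.28 (SE 0.32, limma adjusted p = 0.709). The standard was met by 0 of the 4 genes in limma and in the Ballgown model, against 4.47% and 1.35% of all genes. At an unadjusted P under 0.05, PCK2 passed in limma (1 of the 4) and 0 in the Ballgown model, against 13.3% and 6.6% of all genes. PCK2 was the 1 gene of the 4 whose groups did not overlap, against 21% of all genes.

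These 21-day values leaned on single libraries. PCK2 met the standard, at 1.10 to 1.20, without any one of W_Con piglets 2 or 3 or W_Res piglets 1 or 2, and stood at 0.63 without W_Res piglet 3 (limma adjusted p from 0.275 to 0.678 for the first 4). PCK1 met it without W_Con piglet 2 (2.50) or W_Res piglet 1 (2.34). Without W_Res piglet 3 the FBP1 value was -0.05, and without W_Res piglets 2 and 3 together PCK1 stood at 0.18, PCK2 at 0.58, FBP1 at -0.47 and KHK at -0.17. Smooth muscle markers summed to 1787 and 3905 FPKM in W_Res piglets 1 and 2 against 150 to 656 FPKM in the other 10 libraries, and the lymphocyte list to 214 to 278 FPKM in W_Res and 242 to 288 FPKM in W_Con. Of the 7 genes in that list, 4 were lower in every W_Res piglet than in every W_Con piglet, CD3E (12.6 to 20.3 against 49.1 to 82.5 FPKM), CD3D, CD2 and PTPRC, markers of T cells or of leukocytes in general. The B cell markers CD79A (173 to 230 against 144 to 150 FPKM) and CD79B were higher in every W_Res piglet, and these genes were named after their values were seen. Among the enterocyte markers, VIL1 (296 to 801 against 813 to 1022 FPKM), MTTP (76.4 to 157 against 198 to 371 FPKM) and APOB were lower in every W_Res piglet than in every W_Con piglet. FABP2, SI, ANPEP, APOA1 and APOA4 overlapped between these groups. The part of these markers in the 21-day values, those of the pathway genes included, was not tested.

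At 28 days FBP1 was 0.93 higher in the resveratrol litters (SE 0.37, 95% interval 0.06 to 1.80), a 1.91-fold higher level, with a limma adjusted p of 0.468 over 12380 genes. PCK2 was 0.82 higher (SE 0.36, interval -0.01 to 1.66, limma adjusted p = 0.493). PCK1 differed by 0.69 (SE 1.01, limma adjusted p = 0.839) and KHK by 0.15 (SE 0.35, limma adjusted p = 0.907). The standard was met by 0 of the 4 genes in limma and in the Ballgown model, against 1.81% and 2.76% of all genes. At an unadjusted P under 0.05, FBP1 passed in limma (1 of the 4) and 0 in the Ballgown model, against 10.2% and 7.61%, and 0 had groups that did not overlap, against 17.3%. Outside the 4, the PC identifier ran from 6.45 to 9.15 FPKM in PW_Con and from 9.54 to 17.9 FPKM in PW_Res, without overlap. It did not meet the standard in limma (0.59, SE 0.27, limma adjusted p = 0.519) but did in the Ballgown model (1.37). In the other comparisons it met the standard in neither, and it was picked out here after its values were seen. FBP1 and PCK2 both met the standard without PW_Con piglet 2 (1.19 and 1.10) or without PW_Res piglet 3 (1.19 and 1.04). The PCK1 value went to -0.42 without PW_Res piglet 1, and FBP1 went to 0.62.

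Averaged over both ages, a contrast added after the values were seen, PCK2 was 0.91 higher in the resveratrol litters (SE 0.28, 95% interval 0.30 to 1.52, limma adjusted p = 0.271 over 12886 genes). FBP1 differed by 0.69 (SE 0.33, limma adjusted p = 0.422), PCK1 by 1.15 (SE 0.74, limma adjusted p = 0.531) and KHK by 0.22 (SE 0.25, limma adjusted p = 0.737). Of the 4, 0 met the standard in limma or in the Ballgown model, against 0.939% and 0.737% of all genes, and PCK2 (1 of the 4) passed at an unadjusted P under 0.05 in both, against 12.3% and 13.3%. PCK2 met the standard without W_Res piglet 1, PW_Con piglet 2 or PW_Res piglet 3, at 1.01 to 1.04, and PCK1 without W_Con piglet 2, at 1.60. When W_Res piglets 2 and 3 were both left out, PCK2 stood at 0.70, PCK1 at 0.43, FBP1 at 0.23 and KHK at -0.0081.

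The balance of the 2 carboxykinases was compared within each library, since both turn oxaloacetate into the same product in different compartments. PCK1 made up 17.0, 45.8 and 11.5% of the summed PCK1 and PCK2 level in W_Con and 5.31, 16.3 and 4.65% in PW_Con. It made up 18.2, 49.1 and 33.1% in W_Res and 28.5, 2.93 and 4.21% in PW_Res. Weaned piglets had the 4 lowest shares, and the other 2 weaned piglets, PW_Con piglet 2 and PW_Res piglet 1, lay within the range of sucking piglets. The log2 ratio of PCK1 to PCK2 (1 added to both) was 1.89 lower in weaned than in sucking piglets over both litter sets (6 against 6, exact two-sided permutation test within litter sets, p = 0.03, smallest possible 0.005, adjusted over 6 comparisons 0.18). Within control litters the difference was -1.51 and within resveratrol litters -2.27 (exact permutation p = 0.2 each, smallest possible 0.1), and with 1 library left out these ran from -2.03 to -0.79 (the latter without W_Con piglet 2) and from -3.27 to -1.62. Over both litter sets it ran from -2.39 to -1.53 with 1 library left out, and p was above 0.05 for 7 of the 12 libraries (exact permutation p of 0.055 to 0.075). These were W_Con piglet 2, W_Res piglets 2 and 3, PW_Con piglets 1 and 3 and PW_Res piglets 2 and 3. The ratio differed by 0.63 between diets at 21 days and by -0.13 at 28 days (exact permutation p = 0.6 and 0.9). The 21-day value ran from 0.10 without W_Con piglet 3 to 1.34 without W_Con piglet 2, and stood at 0.13 without W_Res piglet 2 and 1.14 without W_Res piglet 1. Without W_Res piglets 2 and 3 together the averaged weaning difference was -1.37, that within resveratrol litters -1.24 and that between diets at 21 days -0.40, the opposite direction.

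**Figure D3:**
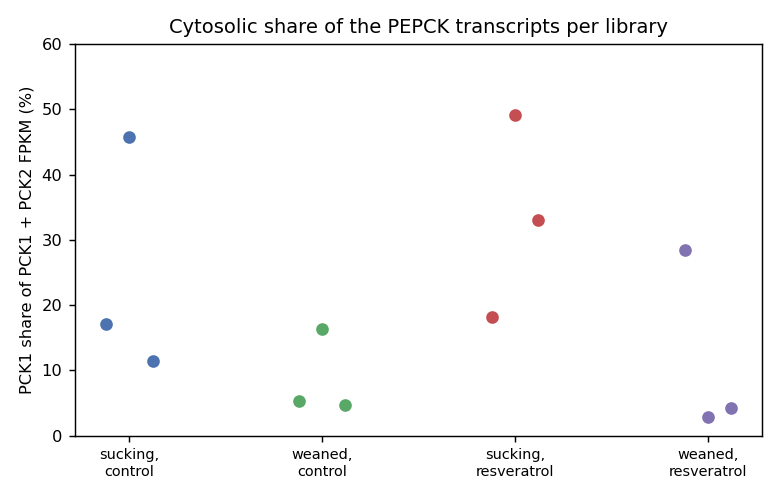
PCK1 as a percentage of the summed FPKM of PCK1 (cytosolic) and PCK2 (mitochondrial), by group; each point is 1 of the 12 libraries. The shares run from 2.93% to 49.1%, and 5 of the 6 weaned piglets lie at or below 16.3%.

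PCK1 varied across piglets together with FBP1 and with KHK, inside the groups as well as between them. Over the 12 libraries, Pearson's r of log2(FPKM + 1) was 0.80 between PCK1 and FBP1 (permutation p = 0.00096, adjusted over 6 pairs 0.00576; Spearman's rho 0.85, permutation p = 0.00071, adjusted 0.00426). It was 0.75 after the group means were removed, 0.68 at 21 days and 0.81 at 28 days. PCK1 and KHK had an r of 0.75 (permutation p = 0.00732, adjusted 0.022; rho 0.79, permutation p = 0.00314, adjusted 0.00942), 0.82 after the group means were removed, 0.77 at 21 days and 0.88 at 28 days. Without W_Res piglets 2 and 3, the libraries farthest from the median of PCK1, r was 0.72 with FBP1 and 0.70 with KHK. The permutations ran over all 12 libraries regardless of group, so that p takes in differences between groups. The values with group means removed and those at each age were not tested.

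Of the other 4 pairs, PCK2 and FBP1 had an r of 0.65 (permutation p = 0.0215, adjusted 0.043; rho 0.57, permutation p = 0.0593, adjusted 0.0847), which was 0.89 after the group means were removed, 0.84 at 21 days and 0.93 at 28 days, and 0.55 without the 2 farthest libraries. FBP1 and KHK had an r of 0.60 (permutation p = 0.0362, adjusted 0.0543; rho 0.71, permutation p = 0.0117, adjusted 0.0234), 0.68 at 21 days, 0.63 at 28 days and 0.63 without the 2 farthest. PCK2 with PCK1 (r 0.48, permutation p = 0.119; rho 0.45, permutation p = 0.14) and PCK2 with KHK (r 0.51, permutation p = 0.0946; rho 0.55, permutation p = 0.0706) did not pass after adjustment (0.119 and 0.114 for r). Their r was 0.76 and 0.64 at 21 days, 0.63 and 0.43 at 28 days, and 0.34 and 0.29 without the 2 farthest libraries.

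**Figure D4:**
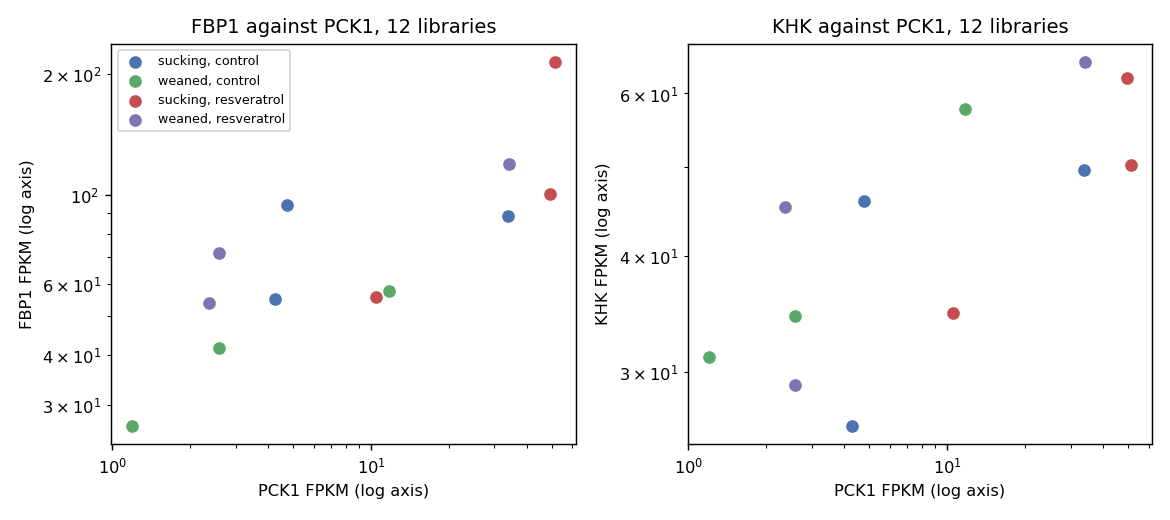
FPKM of FBP1 (left) and KHK (right) against PCK1 in the 12 libraries, all axes on a log scale, coloured by age and maternal diet. Both genes are higher in libraries with more PCK1, with a Pearson's r of 0.80 and 0.75 on the log2(FPKM + 1) scale.

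The 4 genes were also read against the enterocyte marker list (8 of 10 listed genes matched, among them the villin gene and the apolipoproteins of fat absorption). The list summed to 8498, 20278 and 15788 FPKM in W_Con, 7998, 12522 and 3896 FPKM in PW_Con, 9442, 10140 and 15463 FPKM in W_Res and 14303, 7010 and 5806 FPKM in PW_Res. Its lowest library, PW_Con piglet 3, was also the lowest of the 12 in PCK1 and FBP1, and PW_Res piglet 1, which stood out in its group for PCK1, FBP1 and KHK, had the highest enterocyte sum of the weaned piglets. The sum is mostly APOA1, APOA4 and ANPEP, at 78.7 to 95.1% of it. Pearson's r with the summed list was 0.76 for PCK1 (permutation p = 0.00466, adjusted over 24 relations 0.0559; rho 0.80, adjusted 0.0502) and 0.76 for FBP1 (permutation p = 0.00396, adjusted 0.0559; rho 0.78, adjusted 0.0502). For PCK1 it was 0.36 at 21 days and 0.92 at 28 days, and for FBP1 0.56 and 0.79, and without the 2 libraries farthest in the list it was 0.66 and 0.70. KHK had an r of 0.61 and PCK2 of 0.34 (permutation p adjusted 0.177 and 0.749). After the group means were removed, r was 0.88 for PCK2, 0.83 for PCK1 and for FBP1 and 0.76 for KHK, and PCK2 had an r of 0.36 at 21 days and 0.73 at 28 days. APOA1, an apolipoprotein, had the highest r of the 8 genes with each of the 4, at 0.81 with PCK1, 0.88 with FBP1, 0.68 with KHK and 0.47 with PCK2. VIL1 had an r of -0.19 with PCK1 and 0.06 with FBP1, and with the 8 genes weighted equally, a score added after the values were seen, r was 0.46 for PCK1, 0.54 for FBP1, 0.34 for KHK and 0.14 for PCK2. The crypt and cell division list (7 of 8 matched) gave negative values with all 4 genes, from -0.62 with KHK to -0.46 with PCK2 (permutation p adjusted 0.177 to 0.417). They were -0.84 with FBP1, -0.71 with PCK1, -0.69 with PCK2 and -0.66 with KHK after the group means were removed. The distal small intestine list, led by FABP6, gave r from -0.08 to 0.09 with the 4 genes, and 0.51 with PCK1, 0.43 with FBP1, 0.25 with PCK2 and 0.12 with KHK after the group means were removed. The proximal small intestine list gave r from -0.08 to 0.20, and -0.18 to 0.24 after the group means were removed. The smooth muscle list gave an r of 0.60 with PCK1 (permutation p = 0.0369, adjusted 0.177; rho 0.74, permutation p = 0.00727, adjusted 0.0582), 0.38 after the group means were removed and 0.48 without the 2 libraries farthest in the list, and r of 0.11 to 0.22 with the other 3 genes. The lymphocyte list gave r from -0.28 to 0.06. The part of these cell type and position markers in the comparisons above was not tested.

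By Pearson's r over the 12 libraries, among 4472 named genes with a mean of at least 5 FPKM, the genes most like PCK1 were SLC7A8 (an amino acid transporter, r = 0.87), FBXL20 (0.86) and TMEM131 (0.85). Those most like PCK2 were CLPTM1 (r = 0.91), CCL25 (a chemokine of the small intestine, 0.90) and LRRC41 (0.90). HOOK2 (r = 0.96), GATSL2 (0.94) and MFSD9 (0.94) were most like FBP1, and ACY1 (aminoacylase, r = 0.88), AGMAT (agmatinase, 0.84) and LAMP1 (a lysosomal membrane protein, 0.82) most like KHK. The libraries share depth and tissue make-up across genes, so that these values are a description.

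Around the 4 genes, 5 lists of pathway genes were read. They were chosen with earlier results of these data known, so that their counts against all genes are a description. Of 6 other gluconeogenesis enzymes and carriers tested, 0 met the standard in limma in any of the 4 pairwise comparisons, against 1.81 to 4.75% of all genes. At an unadjusted P under 0.05, 0 passed, against 10.2 to 17.7%. The Ballgown model gave 1 of the 6 past the standard, at 28 days, and 2 at an unadjusted P under 0.05 both there and with weaning in control litters, against 2.76%, 7.61% and 17.2% of all genes. SLC37A4, which carries glucose 6-phosphate into the endoplasmic reticulum, averaged 20.5 ± 6.17 FPKM in W_Con, 21.4 ± 3.17 FPKM in PW_Con, 28.2 ± 7.16 FPKM in W_Res and 27.0 ± 2.06 FPKM in PW_Res. G6PC3, the widely expressed phosphatase paralog, averaged 6.44 ± 0.79 FPKM in W_Con, 10.7 ± 4.04 FPKM in PW_Con, 8.56 ± 1.56 FPKM in W_Res and 10.1 ± 2.54 FPKM in PW_Res (SD, n = 3 each). Of 6 enzymes shared with glycolysis, 0 met the standard in limma or the Ballgown model in these comparisons, against 1.81 to 4.75% and 1.35 to 2.76% of all genes. At an unadjusted P under 0.05, 1 passed in limma, PGK1 in the control litters (-0.73, limma adjusted p = 0.204). There 2 passed in the Ballgown model, against 17.7% and 17.2% of all genes. Their fold changes had 1 sign throughout at each age of the diet comparisons, with all 6 below 0 at 21 days (median -0.32, all genes 0.09) and all 6 above 0 at 28 days (median 0.39, all genes -0.07), a split that median-of-ratios, TPM and quantile scaling left as it was. In W_Res piglet 1 alone against W_Con, 5 of the 6 were above 0 at 21 days (median 0.27).

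**Figure D5:**
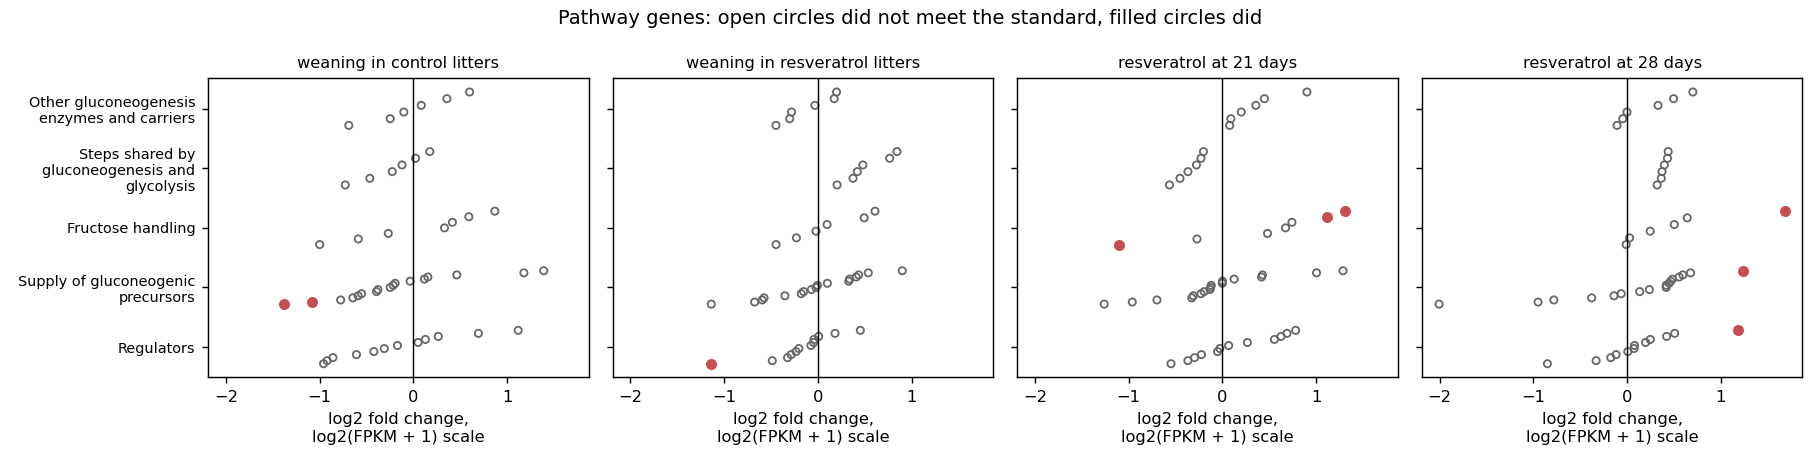
Log2 fold changes (log2(FPKM + 1) scale) of the tested pathway genes by list in 4 comparisons of 3 against 3 piglets; each circle is a gene, filled where it met the standard in limma. The fructose handling list holds 3 filled circles at 21 days and 1 at 28 days, GLYCTK.

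In the fructose handling list, 3 genes met the standard between diets at 21 days, and GLYCTK met it at both ages. GLYCTK, glycerate kinase, acts on glycerate, a product of fructose breakdown. It stood at 10.3, 19.2 and 6.81 FPKM in W_Con against 30.7, 23.6 and 22.5 FPKM in W_Res, and at 5.96, 6.66 and 8.89 FPKM in PW_Con against 32.8, 25.2 and 18.8 FPKM in PW_Res. All 3 piglets of the resveratrol litters lay above all 3 control piglets at each age. GLYCTK rose by 1.12 at 21 days (SE 0.35, limma adjusted p = 0.344) and by 1.69 at 28 days (SE 0.25, limma adjusted p = 0.160). That separation was part of the rule by which the gene was named. Averaged over both ages, in the contrast added after the values were seen, GLYCTK was 1.40 higher (SE 0.23, limma adjusted p = 0.0448), as 1 of 18 genes of 12886 (0.14%) with an adjusted p under 0.05. The averaged value ran from 1.24 to 1.59 over 23 alternative settings and met the standard in each, with limma or Ballgown adjusted p from 0.0349 to 0.168. Leaving out any library other than W_Con piglet 2 (11 of 12 cases) put the limma adjusted p above 0.05. At 21 days GLYCTK did not meet the standard without W_Con piglet 3 (0.80) or W_Res piglet 1 (0.99) or in the Ballgown model (0.87). With W_Res piglet 1 alone against the controls its value was 1.38.

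SLC2A2 encodes the transporter GLUT2, which moves glucose and fructose across the cell membrane, and MLXIPL encodes ChREBP, a transcription factor that responds to sugars. At 21 days SLC2A2 stood at 11.6, 10.1 and 15.2 FPKM in W_Con and 3.09, 5.14 and 8.07 FPKM in W_Res, and the groups did not overlap. It fell by 1.10 with the diet (SE 0.32, limma adjusted p = 0.344), and did not meet the standard without W_Con piglet 3 (-0.95), without W_Res piglet 1 (-0.81) or in the Ballgown model (-0.85). With W_Res piglet 1 alone it stood at -1.68. MLXIPL stood at 3.38, 2.54 and 1.10 FPKM in W_Con and 3.92, 10.4 and 7.76 FPKM in W_Res, again without overlap. It rose by 1.31 (SE 0.40, limma adjusted p = 0.344), but did not meet the standard in the Ballgown model (0.74). With W_Res piglet 1 alone against the controls its value was 0.63. In all, 2 genes of 7 tested in this list rose and 1 fell at 21 days, and 1 of 6 rose at 28 days, where 4.47% and 1.81% of all genes met the standard. The median of the list was 0.67 at 21 days (0.53 without W_Res piglets 2 and 3) and 0.38 at 28 days, against 0.09 and -0.07 over all genes. With weaning, 0 genes of this list met the standard in either litter set, in limma (all genes 3.31% in control and 4.75% in resveratrol litters) or the Ballgown model (2.64% and 1.77%). At an unadjusted P under 0.05 limma passed 3 of 7 in the control litters and 0 of 6 in the resveratrol litters, against 17.7% and 13.3% of all genes. The fructose transporter gene SLC2A5 was not matched by name and is not analysed here. TKFC, the triokinase that follows KHK, averaged 32.0 ± 16.2 FPKM in W_Con, 38.3 ± 9.34 FPKM in PW_Con, 44.0 ± 18.3 FPKM in W_Res and 61.0 ± 18.4 FPKM in PW_Res (SD, n = 3 each), and met the standard in none of the 4 pairwise comparisons in limma.

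Among 17 tested genes that supply gluconeogenic precursors, 2 fell with weaning in the control litters, where 3.31% of all genes met the standard and the proximal marker list was lower in all 3 weaned piglets. These were GPD1, which interconverts glycerol 3-phosphate and dihydroxyacetone phosphate, and LDHA, a lactate dehydrogenase subunit. The enterocyte markers FABP2, MTTP and APOB were also lower in every weaned control piglet than in every sucking one. GPD1 (listed by its identifier, ENSSSCG00000000214) stood at 7.55, 21.1 and 38.7 FPKM in W_Con and 7.24, 6.38 and 5.94 FPKM in PW_Con, a fall of 1.38 on the log2 scale (SE 0.50, limma adjusted p = 0.228). Without any one of W_Con piglets 2 or 3 or of the 3 PW_Con piglets it did not meet the standard, at values of -0.88 to -1.45. LDHA stood at 321, 271 and 510.5 FPKM in W_Con and 133, 189.9 and 182 FPKM in PW_Con and fell by 1.09 (SE 0.27, limma adjusted p = 0.143), but did not meet the standard without W_Con piglet 3 (-0.82) or PW_Con piglet 1 (-0.93). In the resveratrol litters 0 of the 17 met the standard with weaning in limma or the Ballgown model, against 4.75% and 1.77% of all genes. At an unadjusted P under 0.05 limma passed 3 and the Ballgown model 0, against 13.3% and 3.67% of all genes.

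At 28 days GPD1 rose with the maternal diet, at 16.3, 20.6 and 13.8 FPKM in PW_Res against the PW_Con values above (1.24, SE 0.19, limma adjusted p = 0.193), and met the standard under all 17 alternatives run for it. The distal list, at 6743 to 9963 FPKM in PW_Con, stood at 24576, 102 and 106 FPKM in PW_Res, and its part in the diet values at 28 days was not tested. GPD1 was 1 of 17 genes of its list to rise there and 0 fell, where 1.81% of all genes met the standard. Of 12 regulators tested, 0 met the standard in limma with weaning in control litters or with diet at 21 days, against 3.31% and 4.47% of all genes. In the Ballgown model 1 and 0 did, against 2.64% and 1.35%. At an unadjusted P under 0.05, 1 and 3 passed there in limma, against 17.7% and 13.3% of all genes. INSR, the insulin receptor, was the 1 regulator of 12 that fell with weaning in the resveratrol litters, where 4.75% of all genes met the standard and the smooth muscle list was also lower without overlap. It stood at 3.23, 5.46 and 6.48 FPKM in W_Res and 2.18, 0.969 and 2.05 FPKM in PW_Res (-1.14, SE 0.31, limma adjusted p = 0.311). INSR did not meet the standard in the Ballgown model (-0.89), after median-of-ratios rescaling (-0.98) or quantile normalization (-0.87), with 1 locus kept (-0.91), or without W_Res piglet 3 (-0.97) or PW_Res piglet 2 (-0.92), and with W_Res piglet 1 alone its value was -0.66. CREB3L3, a transcription factor of fasting, met the standard at 28 days (1.19, SE 0.40, limma adjusted p = 0.415) with overlapping groups, and it is named here because it was the 1 regulator to do so, chosen after its values were seen.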

How the data were processed

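Jejunum RNA of 12 piglets was sequenced as 4 groups of 3. The authors aligned reads, assembled loci with StringTie and deposited 1 table of FPKM for all 12 libraries; the submitters' processing notes list HISAT2 2.0, StringTie 1.3.0, Bowtie 0.12.2 and the builds Sscrofa10.2 and mm8, and the study's methods name TopHat and Ballgown. Loci that shared a gene name were summed, and unnamed loci, 5.48 to 8.47% of the FPKM of a library, were left out.

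Tests used limma 3.58.1 (R 4.3.3; trended eBayes) on log2(FPKM + 1), two-sided, over named genes averaging 0.5 FPKM or more across the libraries used, with Benjamini-Hochberg adjustment over all of them; fold changes of low genes are understated on this scale. Each comparison used its own groups, and the averaged and difference contrasts all 12 libraries. A gene met the standard, taken from the study, where its unadjusted P was below 0.05 and its log2 fold change lay beyond 1 in either direction, and "rose" or "fell" is used of such genes. The alternative Ballgown linear model had a library size term. Ratios were tested with exact permutation tests and correlations with 100000 permutations (1e+05) of the 12 libraries regardless of group. The steps were tested on simulated data. The depth behind single genes is unknown, so no counting interval is given.

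The members and the pathway and marker lists were chosen with earlier results of these data known. Pathway genes were picked out in a pairwise comparison where they met the standard, their groups did not overlap and their mean was at least 1 FPKM, at most 5 a list and comparison. FBP2, SLC37A4, G6PC3, PGK1, TKFC and CREB3L3 are described outside this rule. The 3 named genes most like each member were taken by r. Groups came from the sample titles. Replicate numbers are shared by the groups, but deviations of same-numbered libraries correlated at only -0.257 to 0.109, so the numbers were not taken as pairs. The study's text describes another breeding cross than the sample records, and the groups follow the records. Fecal microbiota, metabolite and PCR data were not analysed here.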

Additional observations from a re-analysis of the deposited data

Results flagged for a closer look

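For 2 genes of the fructose handling list, the difference between the weaning effects of the litter sets itself met the standard, while 0 of the 4 members did so. This difference equals the diet value at 28 days (0.50 for SLC2A2, -0.0085 for MLXIPL) less that at 21 days, for which both genes were named. It thus rests in part on the W_Con and W_Res values already described and is no separate support. For SLC2A2 (GLUT2) the difference was 1.61 on the log2(FPKM + 1) scale (SE 0.49, limma adjusted p = 0.251). It averaged 12.3 ± 2.61 FPKM in W_Con, 5.82 ± 2.24 FPKM in PW_Con, 5.43 ± 2.51 FPKM in W_Res and 8.68 ± 3.42 FPKM in PW_Res (SD, n = 3 each). For MLXIPL (ChREBP) the difference was -1.32 (SE 0.53, limma adjusted p = 0.317), and it did not meet the standard in 10 of 22 alternatives, with values of -0.29 in the Ballgown model, -0.63 with W_Res piglet 1 alone in its group, -1.32 with a replicate block and -1.01 to -1.24 without any one of 7 libraries (W_Con piglet 3, W_Res piglets 2 or 3, PW_Con piglets 2 or 3, PW_Res piglets 2 or 3). The SLC2A2 value was 2.19 with W_Res piglet 1 alone, and it did not meet the standard in the Ballgown model (1.49). Of all genes tested, 7.76% met the standard for this difference in limma and 2.25% in the Ballgown model. Among 12 regulators tested, 1 also met it in limma, with a value below 0, and 0 met it in the Ballgown model.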

How the results depend on the processing

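Over 464 values of the 4 genes in the 6 planned comparisons, 394 kept their direction and side of the standard, 44 changed direction, 26 newly met the standard, and 0 reached a limma adjusted p under 0.05 (lowest 0.128). The count of the 4 genes meeting the standard moved from 0 to 1 with a pseudocount of 0.1 (PCK1 -1.84 with weaning averaged, PCK2 1.01 at 21 days), after rescaling to TPM (PCK1 -1.75 averaged) and after median-of-ratios rescaling (FBP1 1.03 at 28 days). A replicate block, by numbers not known to pair these piglets, moved it to 1 for weaning in control litters (PCK1, limma adjusted p = 0.243), averaged weaning (PCK1, limma adjusted p = 0.327) and diet at 21 days (PCK1, limma adjusted p = 0.345). Leaving out 1 library gave counts of 0 to 1 for both weaning comparisons, their average and the averaged diet contrast, and 0 to 2 for diet at 21 and at 28 days. With 1 library left out, the difference of the log2 ratio of PCK1 to PCK2 ran from -2.39 to -1.53 for averaged weaning, where it lost p under 0.05 in 7 of 12 cases, from -1.14 to 0.51 for diet at 28 days and from -0.25 to 0.60 for diet averaged over ages.

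Direction changed in the Ballgown model (KHK -0.037 with weaning in control litters; PCK1 0.60, PCK2 -0.37 and KHK 0.89 in resveratrol litters; PCK2 -0.061 and KHK 0.015 averaged; PCK1 0.47 in the difference), with the highest locus alone (KHK -0.056 in control litters and 0.0068 in the difference) and after median-of-ratios rescaling (KHK 0.099 in resveratrol litters and 0.065 averaged; PCK2 0.032 and KHK 0.067 in the difference). Without W_Res piglets 2 and 3 together, an alternative chosen after seeing the data that leaves 1 piglet in W_Res, FBP1 (0.47) and KHK (0.33) reversed for weaning in resveratrol litters, KHK averaged (0.18), PCK1 (0.51), PCK2 (0.25) and KHK (0.32) in the difference, FBP1 (-0.47) and KHK (-0.17) at 21 days and KHK (-0.0081) in the averaged diet contrast, and the log2 ratio of PCK1 to PCK2 stood at -1.37 for averaged weaning, -0.40 for diet at 21 days and -0.27 for diet averaged over ages. With 1 library left out, KHK ran from -0.26 to 0.19 with weaning in control litters, -0.39 to 0.18 in resveratrol litters, -0.19 to 0.10 averaged, -0.41 to 0.16 in the difference and -0.12 to 0.44 at 28 days. PCK2 ran from -0.53 to 0.19 in the difference, FBP1 from -0.91 to 0.048 with weaning in resveratrol litters and from -0.046 to 0.92 at 21 days, and PCK1 from -0.42 to 1.42 at 28 days. The cause of these moves was not tested. In resveratrol litters the Ballgown SE was 2.75 for PCK1, 0.96 for PCK2 and 0.75 for KHK, so that these values do not settle a direction. Counts over all genes ran from 227 to 853 (418 as reported) for weaning in control litters, 230 to 1163 (618) in resveratrol litters, 118 to 591 (183) averaged, 290 to 1448 (1000) for the difference, 178 to 1016 (590) at 21 days and 122 to 490 (224) at 28 days.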
